A study of Xenopus laevis with 6 samples.

Results

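The caudal (cdx), even-skipped (evx) and gastrulation brain (gbx) homeobox genes examined here comprise 12 of the 42549 genes in the deposited table. They were chosen by name, as every row whose name without its final .L or .S is cdx1, cdx2, cdx4, evx1, gbx2.1 or gbx2.2, and all 6 genes had both rows. These families were picked for description with the authors' own stretched against control statistics known. Those statistics are not used here, and none of the values below compares the groups.

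The samples were neuroectoderm explants of wild-type Xenopus laevis embryos, cut at Nieuwkoop-Faber stage 11.5 and joined in pairs by their inner sides. In the control group (3 samples) the explant pairs were pinned to agarose for 3 h without stretching, and in the stretched group (3 samples) they were pinned and stretched over the same 3 h. Each explant was cut by hand from the dorsal side, and the number of embryos behind each library is not given in the sources used here. For each gene the authors' table gives 1 average log2 CPM (counts per 1000000 reads, on a log2 scale) over all samples of their fit, so that a level below belongs to control and stretched explants together and has no spread between replicates. In bulk tissue of this kind, fewer cells of a type and less RNA per cell cannot be told apart.

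Caudal genes encode homeodomain transcription factors of the posterior body. In vertebrate embryos they act downstream of Wnt, FGF and retinoic acid signals and upstream of the trunk Hox genes. Even-skipped genes are likewise active in posterior and ventral mesoderm of the gastrula, while gbx2 is known for setting, against the head gene otx2, the border between midbrain and hindbrain. Xenopus laevis is an allotetraploid frog, and most of its genes exist as a pair of homeologs, .L and .S, on the long and short chromosomes of its 2 subgenomes.

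The scale of the column was read from its lowest values. A total of 12476 genes shared the lowest average log2 CPM, -2.08, and 2346 genes stood 1 step above it, at 6 closely spaced values. These steps are those of a prior count of 2 added to the mean over 6 libraries, with 1 read in any one of them. Under this reading the mean library held 8446369 counted reads, and the total reads of a gene over the 6 libraries follow from its average. The paper's methods state a larger minimum of reads generated per sample, which is taken before mapping and assignment to genes, so that the share of reads that was counted was not determined. For all 8081 genes with up to 12 reads in total, the recovered number was whole within 0.1 reads. This tolerance was set after the values had been seen. Of the genes described here, only gbx2.2.S (11 reads) lies in that range. Totals for higher genes are approximate, since the average then also depends on how the reads were spread over the libraries. Intervals given below are exact 95% intervals (Poisson for totals, Clopper-Pearson for shares). They cover counting error only, and not the error of recovering totals from averages. Reads were not divided by transcript length. Read numbers of different genes, and the percentages of genes with a lower average, therefore rank read depth and not expression.

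None of the 12 genes stood at the lowest value, where 12476 of all 42549 genes lay, but their depth differed widely. By the recovered totals, the caudal genes held about 21323 of about 22180 reads of the set (96.1%). evx1 held about 593 reads (2.67%) and the gbx2 genes about 264 (1.19%). The median average log2 CPM of the 12 genes was 2.32, beside 1.62 for all 30073 genes above the lowest value. 4 of the 12 genes rested on fewer than 100 reads over all 6 libraries, beside 62.1% of all genes. They were cdx1.L, gbx2.1.S, gbx2.2.L and gbx2.2.S.

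**Figure D1:**
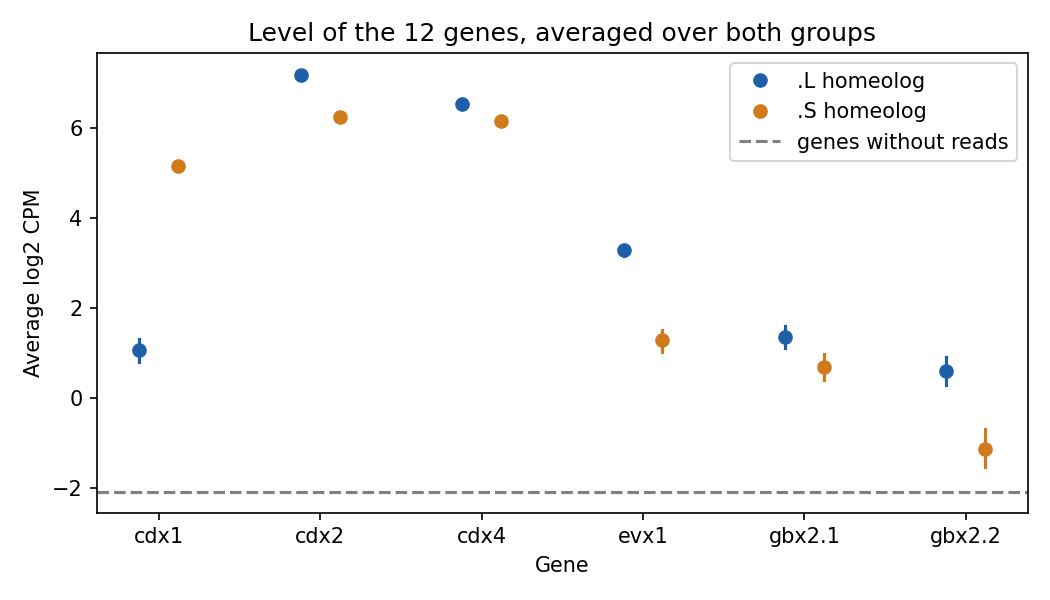
Average log2 CPM (vertical axis) of the 12 genes, by gene (horizontal axis), as the authors' average over control and stretched samples together. Points are .L (blue) and .S (orange) homeologs, bars are exact 95% Poisson intervals for counting error, and the dashed line at -2.08 marks genes without reads. Both homeologs of cdx2 and cdx4 lay above 6, and gbx2.2.S at -1.14 was the point nearest to the line.

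Among the caudal genes, cdx2 and cdx4 had the most reads. cdx2.L had an average log2 CPM of 7.17, or about 7300 reads over the 6 libraries (95% interval 7134 to 7469), and cdx2.S of 6.25, or about 3848 reads (3727 to 3972). Among all genes, 97.0% had a lower average than cdx2.L and 93.5% a lower one than cdx2.S. cdx4, also known in Xenopus as Xcad3 and a target of FGF and Wnt signals, had averages of 6.53 for cdx4.L and 6.15 for cdx4.S on the log2 CPM scale. These correspond to about 4682 (4549 to 4818) and 3592 reads (3476 to 3711). In the ranking of all genes, 94.7% lay below cdx4.L and 93.1% below cdx4.S, so that these 4 rows are among the best covered of the set.

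cdx1 showed the most uneven pair of the set. cdx1.S stood at an average log2 CPM of 5.17 (about 1807 reads, 1725 to 1892), and cdx1.L at 1.07 (about 94 reads, 76.0 to 115.03). The difference of .L minus .S was -4.10 on the log2 CPM scale, and 87.5% of all genes had a lower average than cdx1.S against 61.7% for cdx1.L. Of the 1901 reads of the pair, 4.95% (4.01 to 6.02%) were assigned to .L. Any value of cdx1.L in this table rests on about 15.7 reads per library, and that of cdx1.S on about 301.2.

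evx1, whose product is a homeodomain transcription factor, showed the opposite order of its homeologs. evx1.L had an average log2 CPM of 3.28 (about 482 reads, 440 to 527) and evx1.S of 1.28 (about 111 reads, 91.3 to 134), a difference of 2.00. The .L row took 81.3% (77.9 to 84.3%) of the 593 reads of this pair. Per library, evx1.L rested on about 80.3 reads and evx1.S on about 18.6. In the RefSeq annotation of the Xenopus laevis v10.1 assembly, to which all 12 names matched, evx1.L lies next to hoxa13.L and evx1.S next to hoxa13.S, at the end of the HoxA cluster in both subgenomes.

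Summed over their homeologs, gbx2.1 (188 reads) and gbx2.2 (76 reads) had the fewest reads of the 6 genes. gbx2.1.L had an average log2 CPM of 1.36 (about 118 reads, 97.7 to 141) and gbx2.1.S of 0.70 (about 70 reads, 54.6 to 88.4). For gbx2.2.L the average was 0.61 (about 65 reads, 50.2 to 82.8), and for gbx2.2.S it was -1.14 (11 reads, 5.49 to 19.7). With about 1.84 reads per library, a difference between groups in gbx2.2.S would have to be read from very few counts. The annotation places gbx2.1 and gbx2.2 side by side on both subgenomes. They are tandem copies, and reads that fit more than one of the 4 rows could be assigned to any of them or left uncounted, so that the split among these rows is uncertain.

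The split between homeologs was set beside that of all pairs in the table. Among 5451 homeolog pairs with at least 100 reads in total, which include 5 of the 6 pairs described here, the .L share had a median of 54.9%, with 35.3% and 76.1% as quartiles. The range from the 5th to the 95th percentile ran from 7.32% to 97.5%. The .L share was above 50% in 57.1% of these pairs and in 5 of the 6 gene pairs described here. For cdx4 it was 56.6% (55.5 to 57.7%), for gbx2.1 62.8% (55.4 to 69.7%) and for cdx2 65.5% (64.6 to 66.4%), all within the quartiles. evx1 and gbx2.2 (85.5%, 75.6 to 92.6%, of 76 reads) lay above the upper quartile, and gbx2.2 has fewer than the 100 reads asked of the other pairs. Only cdx1 fell below the 5th percentile, as 3.83% of the pairs had a lower .L share. How reads shared by both homeologs were assigned is not given in the sources used here, and the part of that step in these shares was not tested.

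**Figure D2:**
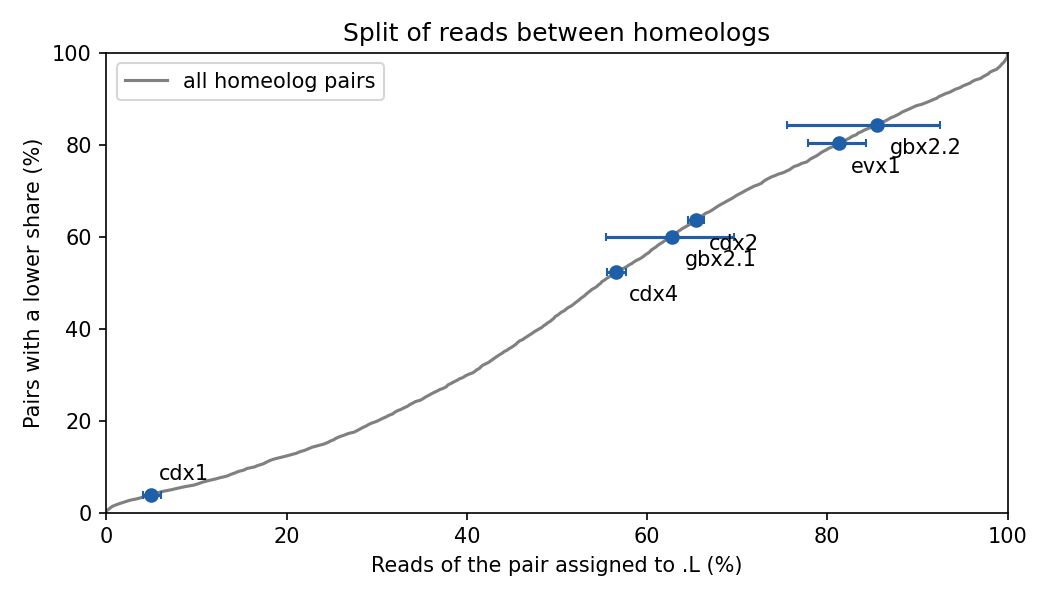
Share of a homeolog pair's reads assigned to .L (horizontal axis, %) against the percentage of pairs with a lower share (vertical axis), for 5451 pairs with at least 100 reads (grey line) and the 6 gene pairs described here (blue points, with exact 95% intervals for counting error). cdx1 lies at the left end with a share of 4.95%, and the other 5 pairs lie right of 50%.

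**Figure D3:**
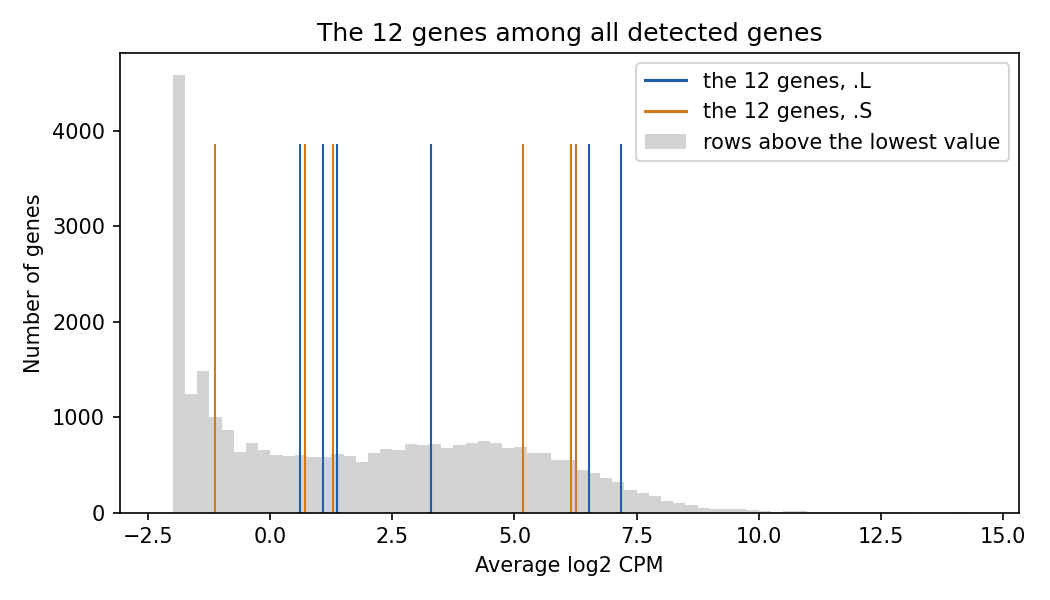
Number of genes (vertical axis) by average log2 CPM (horizontal axis, bins of 0.25) for the 30073 genes above the lowest value, with the averages of the 12 genes as vertical lines (blue, .L; orange, .S). The lines of cdx2, cdx4 and cdx1.S lie in the right part of the distribution, above 5, and those of gbx2 at 1.36 or below.

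Genes that act around the caudal genes were covered unevenly as well. Fewer than 100 reads in total lay behind 62.1% of all genes, and the listed genes are read beside that share. It counts the 12476 genes without reads. Of 23 rows of posteriorizing signals and their responders (12 genes of the Wnt, FGF and retinoic acid pathways), 7 had fewer than 100 reads, and 23 were above the lowest value. They ranged from wnt3a.S at an average log2 CPM of -1.58 to the retinoic acid receptor rarg.S at 7.32, with a median of 2.66. Of 26 rows from a chosen list of Hox genes, 21 had fewer than 100 reads, and 25 were above the lowest value. Their median was -0.14 on the log2 CPM scale, hoxb1.L was at the lowest value, and hoxd1.L, an early retinoic acid target, had the highest average of this list at 3.99. Other Hox genes were not examined. Among 12 rows of head homeobox genes, 7 had fewer than 100 reads. Of these genes, otx2, which opposes gbx2 at the border of midbrain and hindbrain, had averages of 5.01 (otx2.L) and 5.47 (otx2.S, the highest of the list), while rax.L, of the eye field, was at the lowest value. These are read levels that were not divided by length, given for the depth behind each list.

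Markers of the layers an explant could hold were read beside the label of neuroectoderm, and the make-up of the explants was not determined from them. According to the paper's discussion, the explants also took in marginal zone, whose outer layers express tbxt. For scale, 87.5% of all genes had a lower average than cdx1.S at 5.17, and the median of genes above the lowest value was 1.62. Neural ectoderm markers were above an average log2 CPM of 5 in 11 of 13 rows, from ncam1.S (1.39) to sox3.S (8.07), with a median of 6.13. Non-neural ectoderm markers exceeded 5 in 13 of 13 rows, from krt12.5.L (5.07) to krt12.5.S (9.89), with a median of 8.49. Markers of posterior mesoderm, a tissue in which cdx and evx1 are active, ranged from msgn1.S (-0.34) to tbxt.S (6.79). Their median over 9 rows was 1.21. The 2 rows above 5 were the homeologs of tbxt. The highest other row was wnt8a.L (2.64), a gene also listed among the posteriorizing signals. Markers of notochord and organizer ranged from shh.L (0.32) to foxa4.L (6.12) over 6 rows, with a median of 1.96. Here the 2 rows above 5 were the homeologs of foxa4, and the highest other row was shh.S (2.08). Endoderm markers had a median of 0.61 over 11 rows, and 1 row, a2m.S (6.78), lay above 5, while gata4.L was lowest at -0.76. Fewer than 100 reads lay behind 7 of these 11 rows. Among all genes the share was 62.1%, which counts the 12476 genes without reads, while 0 endoderm rows were at the lowest value. Fewer than 100 reads also lay behind 4 of 9 posterior mesoderm rows, 1 of 6 notochord and organizer rows and 0 of 13 rows in each ectoderm list. The cell type from which the caudal reads came was not tested.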

How the data were processed

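Poly(A) RNA of 3 control and 3 stretched samples was sequenced. According to the paper's methods the authors mapped reads with STAR and calculated fold changes with DESeq2, and the submitters' processing notes list edgeR, DESeq, HTSeq and TopHat2 with no version of any. The build of the genome is not given in the sources used here, nor is the annotation. In 1 table the authors deposited, per gene, the average log2 CPM and their own log2 fold change with its F, p-value and FDR. The fold changes and their statistics are the authors' own comparison and were not used, so that no test between groups was made. Only the gene names and the deposited average log2 CPM over all samples were analysed.

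Total reads were computed as 12 × (2 to the power of the difference from the lowest value, minus 1). The factor 12 is 6 libraries times a prior count of 2. This step was tested on simulated counts averaged with the same prior count, so that the prior count itself was not tested. The pass limits covered only genes with up to 12 reads and the mean library size. The tolerance for whole reads and the minimum of 100 reads for a pair were set after the values had been seen, and 1 symbol with repeated rows was left out of the pairs. The counted depth of single samples is unknown. The mean of 8446369 counted reads is an inference that rests on the prior count, and it lies below the minimum of generated reads that the paper's methods state. The computations ran in Python 3.11.15 (pandas 2.3.3, numpy 2.4.6, scipy 1.17.1, matplotlib 3.10.9). RefSeq served for names and neighbouring genes only.

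The members and lists were chosen with earlier results of these data known. All 12 members are named, and of each list at least the highest and lowest row and those at the lowest value. Listed genes without a row (hoxb8, otx5, myod1, chrd, noto, sox17b.2) were not analysed here. Alternatives were subtraction of the lowest value and ranks among detected genes.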

Additional observations from a re-analysis of the deposited data

How the results depend on the processing

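Subtracting the CPM of a gene without reads (0.237) moved 1 of 12 levels beyond its counting interval, gbx2.2.S, from -1.14 to -2.20 on the log2 CPM scale. It moved 1 of 6 homeolog differences likewise, that of gbx2.2, from 1.75 to 2.57, because the prior count weighs most on few reads. The other 11 levels and 5 differences stayed within theirs. The shift and the interval both follow from the same read totals, so these counts reflect depth and are no separate check. No difference could change its sign, since the same value was subtracted from both homeologs. All 12 ranks moved beyond their counting intervals. Each rank had to fall, since 12476 genes without reads are left out of the second ranking. A counting interval does not measure such a change of reference. Among genes above the lowest value, the percentage with a lower average was 95.8 for cdx2.L, 90.8 for cdx2.S, 92.5 for cdx4.L, 90.2 for cdx4.S, 82.3 for cdx1.S, 45.8 for cdx1.L, 64.4 for evx1.L, 47.4 for evx1.S, 48.0 for gbx2.1.L, 42.8 for gbx2.1.S, 42.2 for gbx2.2.L and 26.1 for gbx2.2.S. Levels per coding length and protein identities of homeologs had been planned and were not run, as no lengths or proteins were used here. No paired analysis was possible because no values per sample were used, and for the same reason no replicate could be left out.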
